A study of Homo sapiens with 24 samples.

Results

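The E2F transcription factors and the RB pocket proteins that bind them were followed in 2 human triple-negative breast cancer lines, in libraries labelled for loss of the ubiquitin ligase MDM2 and in their controls. The 10 genes are E2F1 to E2F8, RB1 and RBL1, taken by symbol from the 60675 gene identifiers of the count tables, where each matched 1 Ensembl identifier. MDA-MB-231 and MDA-MB-436 are established lines, and MDA-MB-436 is widely used as a line that lacks functional RB1 protein. In each line, cells expressed a hairpin that the labels name MDM2 shRNA or a control hairpin named non-targeting shRNA. In a parallel pair they were treated with YX-2-30, described as an MDM2 PROTAC, a molecule meant to send its target to the proteasome, or with its vehicle DMSO. Each of the 8 groups had 3 libraries, so 24 in all, made from total RNA of cells cultured in DMEM with serum. The hairpin sequences and the dose and time of the PROTAC are not stated, each background is a single line, and nothing states whether the 3 libraries within a group stem from separate cultures. The p-values therefore measure only the spread between these libraries, which may be technical.

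E2F proteins bind short GC-rich sites in promoters, most of them as dimers with a DP partner, and turn on genes needed to enter and pass through S phase. E2F1, E2F2 and E2F3 are the activators, which RB1 binds and blocks until cyclin-dependent kinases phosphorylate it. E2F4 and E2F5 act mainly as repressors with the pocket proteins RBL1 (p107) and RBL2 (p130), E2F6 represses through Polycomb partners without a pocket protein, and E2F7 and E2F8 bind DNA without a DP partner and repress. Several of these genes are themselves E2F targets, so the family is known to regulate its own transcription through the cell cycle.

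The promoters of 4 of the 6 genes that rose in MDA-MB-436 are shown. E2F8 and RB1 had no RefSeq window within 1000 bases of the GENCODE start. E2F sites in promoters are a known route of such self-regulation, and their part in these rises was not tested. Sequences are from RefSeq on GRCh38.p14, cover the 250 bases before the transcription start, and are written 5′ to 3′ on the gene's strand. Capitals mark every match to TTTCCCGC, TTTCGCGC, TTTGGCGC or TTTGCCGC on either strand. The motifs do not contain one another. The windows are chr20:33686386-33686635 for E2F1, chr1:23531234-23531483 for E2F2, chr20:37095998-37096247 for RBL1 and chr12:77065570-77065819 for E2F7, all on the minus strand.
E2F1: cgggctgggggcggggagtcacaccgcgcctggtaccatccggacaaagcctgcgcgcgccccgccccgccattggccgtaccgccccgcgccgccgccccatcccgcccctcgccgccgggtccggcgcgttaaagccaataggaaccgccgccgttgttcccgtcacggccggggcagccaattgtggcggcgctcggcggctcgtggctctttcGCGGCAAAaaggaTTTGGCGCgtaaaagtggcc
E2F2: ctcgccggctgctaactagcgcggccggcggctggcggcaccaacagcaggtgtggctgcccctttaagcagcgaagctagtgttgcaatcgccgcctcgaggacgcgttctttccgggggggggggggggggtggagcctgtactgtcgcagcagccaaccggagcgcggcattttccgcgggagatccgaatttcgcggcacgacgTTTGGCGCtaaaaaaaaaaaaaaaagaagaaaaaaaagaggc
RBL1: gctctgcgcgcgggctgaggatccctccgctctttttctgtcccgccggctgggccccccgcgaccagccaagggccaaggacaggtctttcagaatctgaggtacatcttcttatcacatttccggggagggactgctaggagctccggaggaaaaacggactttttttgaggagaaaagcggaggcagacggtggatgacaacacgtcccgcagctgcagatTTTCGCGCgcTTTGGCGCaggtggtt
E2F7: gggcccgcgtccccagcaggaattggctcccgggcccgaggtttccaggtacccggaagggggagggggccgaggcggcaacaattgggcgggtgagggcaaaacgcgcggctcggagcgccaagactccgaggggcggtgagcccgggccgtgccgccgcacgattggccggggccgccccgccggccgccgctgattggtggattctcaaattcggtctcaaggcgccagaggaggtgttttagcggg
E2F1 held a match 33 to 26 bases before the start on the other strand and one 20 to 13 bases before it on the gene's strand. E2F2 held 1 match, 42 to 35 bases before the start, and RBL1 held 2, at 26 to 19 and 16 to 9 bases. E2F7 held no match in this window. RefSeq windows within 1000 bases of the GENCODE start were available for 7 of the 10 genes, and 4 of them, E2F3 included, held at least 1 match, against 979 of 35116 promoters of this length (2.79%). The CHR element, TTTGAA or TTCGAA on either strand, a site of the MuvB complexes, was found in E2F3 and in no other of the 7, against 14.3% of all promoters. A match is a run of letters and was not tested for binding.

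On GRCh38, with GENCODE 29 and the strand in brackets, the genes lie as follows: E2F1 at chr20:33675683-33686404 (minus), E2F2 at chr1:23506430-23531220 (minus), E2F3 at chr6:20401906-20493715 (plus), E2F4 at chr16:67192169-67198918 (plus), E2F5 at chr8:85177225-85217158 (plus), E2F6 at chr2:11444375-11466177 (minus), E2F7 at chr12:77021247-77065580 (minus), E2F8 at chr11:19224063-19241620 (minus), RB1 at chr13:48303726-48599436 (plus) and RBL1 at chr20:36996349-37095995 (minus).

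Levels are given in CPM, counts scaled to a common library total after TMM scaling, and as CPM per kb of exon where genes are compared with each other. Library totals ran from 33413988 to 174744841 counts. The lowest level among the 10 genes in CPM, RB1 in an MDA-MB-436 control library, rested on 408 counts. The lowest count was 344, for E2F5 in PROTAC replicate 3 of MDA-MB-436. No fall of MDM2 itself was called in the hairpin libraries. It had 24.8, 23.8 and 30.9 CPM in them, against 20, 22.9 and 11.4 CPM with the non-targeting shRNA in MDA-MB-231, and 14.7, 28.0 and 26.8 CPM, against 21.5, 29.9 and 24.3 CPM, in MDA-MB-436. The log2 changes of MDM2 were 0.55 ± 0.24 and -0.11 ± 0.22 (edgeR adjusted p = 0.137 and 0.78), and with the PROTAC 0.26 ± 0.24 and -0.61 ± 0.22 (edgeR adjusted p = 0.513 and 0.0573). Since no fall was called, the hairpin groups are named as libraries labelled MDM2 shRNA. The PROTAC libraries stood close to those labelled MDM2 shRNA: set directly against each other, edgeR called 3 of 20675 genes in MDA-MB-231 (0.0145%) and 1 of 22663 in MDA-MB-436 (0.00441%), none of them an E2F or pocket gene. DMSO against non-targeting libraries gave 0 called genes in MDA-MB-231 (0.0%), with 903 at an unadjusted p under 0.05, and 4 in MDA-MB-436 (0.0176%), none of them one of the 10 genes, with 2579 of 22663 at an unadjusted p under 0.05. E2F7 was the one member of the family among those 2579, higher in the DMSO libraries by a log2 difference of 0.32 ± 0.089 (edgeR adjusted p = 0.36).

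Other readouts moved with treatment too. Mitochondrial genes took 5.47% to 5.50% of counts in the treated MDA-MB-436 libraries, against 6.78% to 7.26% in their controls. The labels call the cells epithelial, and KRT8 and KRT18 were present in both lines, but CDH1 was at most 0.397 CPM in MDA-MB-231 and 0.65 CPM in MDA-MB-436. The summed level of 5 epithelial markers was 509 to 572 CPM with the MDM2 shRNA label, against 964 to 1140 CPM with the non-targeting shRNA in MDA-MB-436. With the PROTAC it was 409 to 549 CPM, against 827 to 886 CPM with DMSO. Replication histone genes took 0.0287% to 0.0299% of counts in the treated MDA-MB-231 libraries, against 0.0718% to 0.079% in their controls, and 0.0224% to 0.0257%, against 0.0178% to 0.0215%, in MDA-MB-436. The 3 luminal markers in MDA-MB-436 summed to 3.48 to 5.39 CPM with the MDM2 shRNA label, against 0.992 to 1.5 CPM, and to 4.35 to 5.58 CPM with the PROTAC, against 0.556 to 1.52 CPM. The 4 mesenchymal markers there summed to 868 to 887 CPM with the MDM2 shRNA label, against 1020 to 1160 CPM, and to 760 to 905 CPM with the PROTAC, against 1180 to 1240 CPM. Of the 4 mesenchymal markers in MDA-MB-231, the sum was 3190 to 3460 CPM and 3140 to 3420 CPM in the treated groups, against 5000 to 6560 CPM and 4980 to 5080 CPM in their controls. Fibroblast markers in MDA-MB-231 summed to 30.2 to 32.0 CPM and 28.0 to 31.4 CPM in the treated groups, against 14.5 to 16.8 CPM and 14.6 to 18.6 CPM in their controls. COL1A1 held most of that sum, at 14.4 to 31.6 CPM, while DCN, LUM and PDGFRA reached at most 0.504 CPM. Among the luminal markers in MDA-MB-436, GATA3 reached 5.12 CPM, against at most 0.517 CPM for ESR1 and PGR. VIM had 2760 to 6200 CPM in MDA-MB-231, and FN1, ZEB1 and CDH2 at most 335 CPM. The fibroblast, luminal and mesenchymal sums thus mainly follow single genes. The epithelial sum in MDA-MB-436 rests mainly on KRT8 (205 to 665 CPM) and KRT18 (198 to 472 CPM). EPCAM reached at most 6.42 CPM and KRT19 at most 1.4 CPM in that line. Leukocyte and endothelial markers summed to at most 5.67 and 2.20 CPM in any library. The part of these shifts in the results below was not tested.

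In the control libraries the lines differed most in RB1 among the 10 genes. It averaged 7.87 ± 1.09 CPM in the non-targeting and 9.68 ± 1.21 CPM in the DMSO libraries of MDA-MB-436, against 98.0 ± 3.53 and 99.3 ± 5.75 CPM in those of MDA-MB-231 (SD, n = 3 each). The log2 difference between the control libraries was -3.50 ± 0.091 (± SE; edgeR adjusted p = 1.19e-17), a level of 0.0886 times that of MDA-MB-231 (95% interval 0.0776 to 0.101). Of the 10 genes, 7 were lower in MDA-MB-436, where 30.9% of 24719 genes were, and 2 were higher, against 35.9% of genes. The repressor E2F7 and the pocket gene RBL1 were lower by similar amounts, with log2 differences of -1.65 ± 0.050 and -1.65 ± 0.045 (edgeR adjusted p = 1.27e-16 and 2.37e-17). E2F3, E2F8, E2F4 and E2F2 were lower by smaller amounts, from -1.33 ± 0.27 for E2F3 to -0.26 ± 0.055 for E2F2. E2F6 was higher by 1.08 ± 0.16 and E2F1 by 0.30 ± 0.064 (edgeR adjusted p = 3.25e-06 and 0.000345). For E2F5 the difference of -0.28 ± 0.12 missed the threshold (edgeR adjusted p = 0.0543). With 1 line on each side, these values compare 2 lines and not kinds of tumour.

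**Figure D1:**
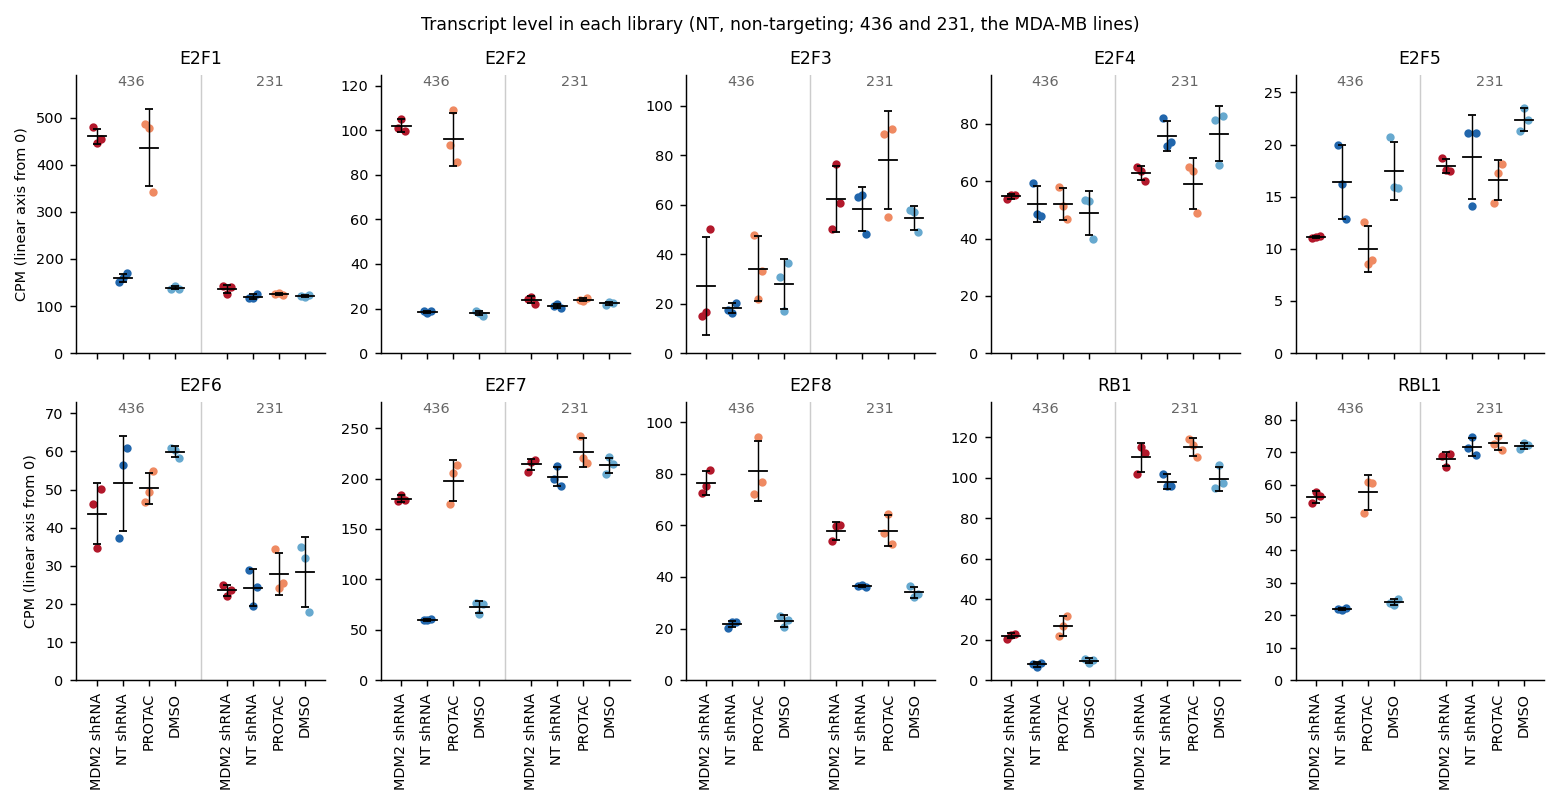
CPM (linear axis from 0) of the 10 genes in each of the 24 libraries, by group, MDA-MB-436 left and MDA-MB-231 right of the grey line; points are libraries, long bars the mean and error bars the SD of 3 libraries. In MDA-MB-436, E2F1, E2F2, E2F7, E2F8, RB1 and RBL1 stand above their controls in all treated libraries, while RB1 stays below its MDA-MB-231 level in every group.

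The treated MDA-MB-436 cells had more transcript of 6 of the 10 genes: E2F1, E2F2, E2F7, E2F8, RB1 and RBL1 rose with the MDM2 shRNA label and with the PROTAC, by 2.4-fold to 5.57-fold. In that line 16.0% of 22663 genes rose in the first comparison and 17.3% in the second. Over the 10 genes the median log2 change was 1.44 and 1.35, against 0.04 over all genes in both comparisons. With the MDM2 shRNA label, edgeR called none of the 10 lower, where 14.4% of genes fell, although 1 of them, E2F5, was lower at an unadjusted p under 0.05, and DESeq2 called it. With the PROTAC 1 fell, again E2F5, where 15.1% of genes did. The 3 treated libraries were all above the 3 controls for the same 6 genes in both comparisons, as for 26.1% and 21.3% of genes. They were all below the controls for 1, E2F5, with the MDM2 shRNA label, where 25.2% of genes were, and for 2, E2F5 and E2F6, with the PROTAC, where 20.3% were. In such bulk libraries, fewer cells of a type and less RNA per cell cannot be told apart, and the same holds for the share of cells in each cell cycle phase.

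Among the activators, E2F1 had 479, 447 and 455 CPM in MDA-MB-436 libraries labelled MDM2 shRNA, against 151, 159 and 169 CPM with the non-targeting shRNA. With the PROTAC it had 487, 478 and 342 CPM, against 136, 143 and 137 CPM with DMSO. The groups did not overlap in either pair, and PROTAC replicate 3, the shallowest library of the series, was the lowest of the treated ones. The log2 changes were 1.54 ± 0.10 and 1.64 ± 0.10 (edgeR adjusted p = 6.39e-07 and 4.03e-07), that is 2.92-fold and 3.12-fold. E2F2 changed the most of the 10. It had 101, 105 and 99.6 CPM with the MDM2 shRNA label, against 18.8, 18.1 and 18.7 CPM with the non-targeting shRNA. PROTAC libraries had 93.3, 109 and 85.6 CPM, against 18.7, 18.0 and 16.8 CPM with DMSO. Every treated library stood several-fold above every control, and E2F2 rose 5.57-fold (95% interval 4.92 to 6.31) and 5.34-fold (4.72 to 6.05; edgeR adjusted p = 7.5e-09 and 9.1e-09).

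E2F3, also an activator, gave no call. It had 14.9, 16.7 and 50 CPM with the MDM2 shRNA label, against 17.4, 16.4 and 20.4 CPM with the non-targeting shRNA. It had 47.7, 21.8 and 33.1 CPM with the PROTAC, against 30.6, 16.9 and 36.4 CPM with DMSO. Single libraries within a group differed by up to several-fold and the groups overlapped. The log2 changes of 0.61 ± 0.45 and 0.29 ± 0.45 did not pass (edgeR adjusted p = 0.363 and 0.678), and their 95% intervals, -0.38 to 1.60 and -0.70 to 1.28, leave room for changes of either sign. E2F3 has 2 pseudogenes named after it, and how their reads were shared is not stated.

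The atypical repressors rose together. E2F7 had 178, 184 and 179 CPM with the MDM2 shRNA label, against 59.3, 59.5 and 60.3 CPM with the non-targeting shRNA, and 175, 206 and 213 CPM with the PROTAC, against 76.2, 66.1 and 75.7 CPM with DMSO. These are rises of 3.06-fold and 2.72-fold (log2 1.61 ± 0.091 and 1.44 ± 0.090; edgeR adjusted p = 3.25e-07 and 6.41e-07). E2F8 had 72.4, 75.2 and 81.6 CPM with the MDM2 shRNA label, against 20.4, 22.7 and 22.4 CPM with the non-targeting shRNA. The PROTAC libraries had 72.3, 94.4 and 76.9 CPM, against 24.9, 20.5 and 23.5 CPM with DMSO. Treated and control libraries of both genes were fully separated, and E2F8 rose 3.54-fold and 3.52-fold (log2 1.82 ± 0.11 in both; edgeR adjusted p = 4.91e-07 and 4.84e-07).

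Both pocket protein genes among the 10 rose in MDA-MB-436, while RBL2, a pocket protein gene outside the 10, fell there (log2 -0.74 and -0.73). RB1 had 20.5, 22.3 and 22.9 CPM with the MDM2 shRNA label, against 8.24, 6.64 and 8.72 CPM with the non-targeting shRNA. It had 21.7, 26.8 and 31.9 CPM with the PROTAC, against 10.7, 8.36 and 9.97 CPM with DMSO. The treated libraries were all above the controls, and the log2 changes were 1.49 ± 0.17 and 1.47 ± 0.17 (edgeR adjusted p = 4.81e-05 and 4.92e-05). Even so, the highest RB1 value in this line, 31.9 CPM, was below the lowest in MDA-MB-231, 94.8 CPM. As a measure of carry-over between libraries, 58 genes with at least 10 CPM in MDA-MB-231 controls and under 0.1 CPM in MDA-MB-436 controls stood at a median of 0.274% and 0.15% of their MDA-MB-231 level in the hairpin and PROTAC groups of MDA-MB-436, against 0.101% and 0.184% in their controls. The highest of the 58 reached 28.4% and 24.4% in the treated groups, against 1.16% and 1.51% in the controls. Because the 58 genes were picked by their low level in these controls, the control values are low by that choice. Treated and control values can therefore not be set against each other here, and the part of carry-over in the RB1 rise was not tested. RBL1, which encodes p107 and is a classic E2F target, had 54.3, 57.8 and 56.7 CPM with the MDM2 shRNA label, against 21.8, 21.7 and 22.3 CPM with the non-targeting shRNA. PROTAC libraries had 51.5, 60.9 and 60.7 CPM, against 23.8, 23.2 and 24.9 CPM with DMSO. The replicates were tight and did not overlap with the controls, and RBL1 rose 2.6-fold and 2.4-fold (log2 1.38 ± 0.086 and 1.26 ± 0.086; edgeR adjusted p = 6.65e-07 and 1.15e-06). An antisense gene overlaps 211 bases of RBL1 exon, and without a statement that counting used strand its reads cannot be told apart from those of RBL1.

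None of the repressors E2F4, E2F5 and E2F6 was called higher in MDA-MB-436, unlike the atypical repressors E2F7 and E2F8. E2F4 had 53.7, 55.3 and 55.1 CPM with the MDM2 shRNA label, against 59.3, 48.6 and 48.0 CPM with the non-targeting shRNA, and its log2 change was 0.09 ± 0.13 in both comparisons (edgeR adjusted p = 0.665 and 0.651). The 95% interval of that change, -0.19 to 0.37, lies below the changes of all 6 genes that rose. E2F5 had 11, 11.1 and 11.2 CPM with the MDM2 shRNA label, against 20, 16.2 and 12.9 CPM with the non-targeting shRNA. It had 12.6, 8.59 and 8.89 CPM with the PROTAC, against 20.7, 15.9 and 15.8 CPM with DMSO. Treated libraries were below the controls in both pairs, and the log2 change passed with the PROTAC (-0.81 ± 0.20; edgeR adjusted p = 0.0078) and just missed with the MDM2 shRNA label (-0.55 ± 0.19; edgeR adjusted p = 0.0524). Exons of E2F5 share 969 bases with the gene C8orf59 on the other strand, so its level is uncertain. E2F6 changed by -0.22 ± 0.17 and -0.25 ± 0.17, and neither passed (edgeR adjusted p = 0.386 and 0.307); 4 pseudogenes carry its name.

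**Figure D2:**
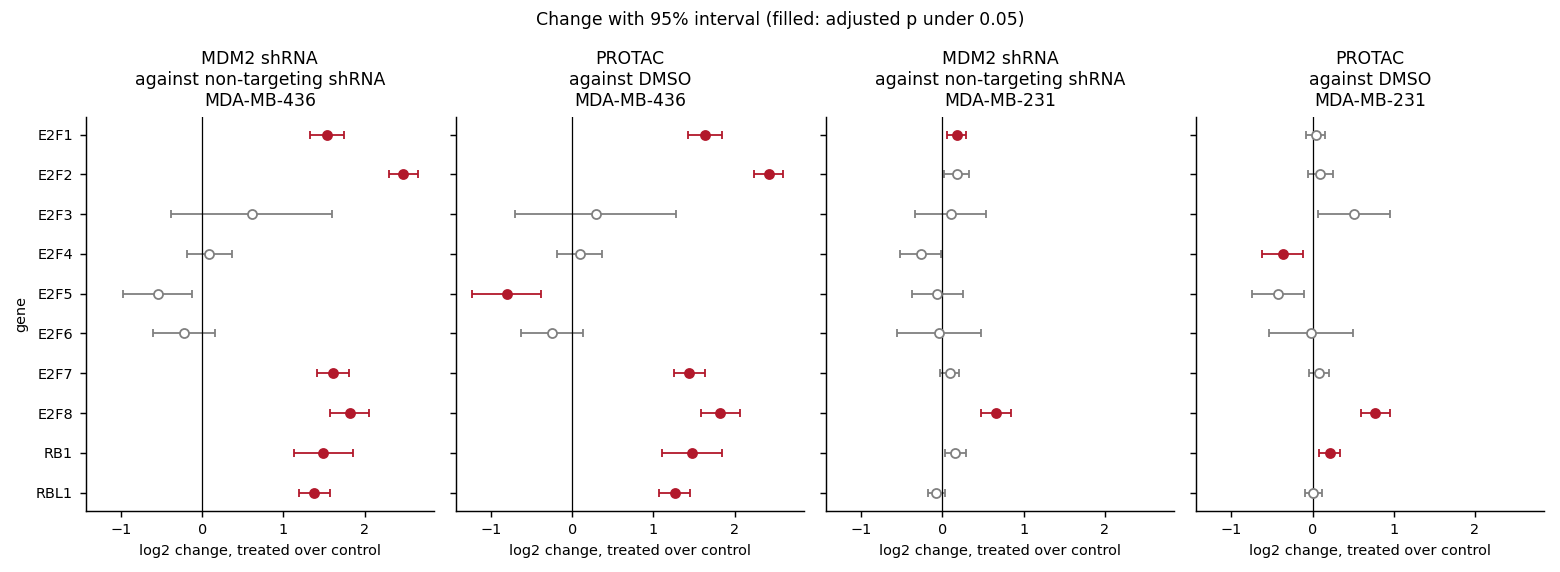
log2 change of each gene, treated over control, in the 4 comparisons, with 95% intervals over 3 libraries a group; filled points have an edgeR adjusted p under 0.05. The 6 genes that rose in MDA-MB-436 lie between 1.26 and 2.48, while the MDA-MB-231 changes lie between -0.43 and 0.77.

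In MDA-MB-231 the log2 changes of the family lay between -0.43 and 0.77, with E2F8 the highest in both comparisons. With the MDM2 shRNA label 2 of the 10 genes rose, E2F1 and E2F8, where 11.1% of 20675 genes did. None was called lower by edgeR or DESeq2, where 11.6% of genes fell, and E2F4 was lower at an unadjusted p under 0.05. With the PROTAC 2 rose, E2F8 and RB1, where 11.1% of genes did, and 1 fell, E2F4, where 11.5% did. The median log2 change over the 10 genes was 0.10 and 0.06, against 0.01 and -0.01 over all genes. Treated libraries were all above the controls for 2 genes, E2F2 and E2F8, with the MDM2 shRNA label, where 19.7% of genes were, and all below for 1, E2F4, where 19.3% were. With the PROTAC they were all above for 3, E2F2, E2F8 and RB1 (19.2% of genes), and all below for 2, E2F4 and E2F5 (19.9%).

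E2F8 had 53.8, 59.7 and 60.1 CPM with the MDM2 shRNA label, against 36.4, 37.0 and 36.3 CPM with the non-targeting shRNA. PROTAC libraries had 57.0, 64.5 and 52.6 CPM, against 36.6, 32.2 and 33.3 CPM with DMSO. No treated library overlapped with a control, and the rises were 1.58-fold and 1.7-fold (log2 0.66 ± 0.082 and 0.77 ± 0.082; edgeR adjusted p = 0.000161 and 5.8e-05). E2F7, its closest relative and a gene at a higher level in this line, had 207, 216 and 218 CPM with the MDM2 shRNA label, against 200, 212 and 193 CPM with the non-targeting shRNA. Its log2 changes of 0.09 ± 0.053 and 0.08 ± 0.053 did not pass (edgeR adjusted p = 0.308 and 0.353), with 95% intervals of -0.03 to 0.20 and -0.04 to 0.20. Per kb, E2F8 reached 0.412 ± 0.0142 of the level of E2F7 with the MDM2 shRNA label, against 0.276 ± 0.0104 with the non-targeting shRNA, and 0.393 ± 0.0477 with the PROTAC, against 0.243 ± 0.0252 with DMSO (SD, n = 3 each).

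The other calls in MDA-MB-231 were small. E2F1 had 142, 125 and 140 CPM with the MDM2 shRNA label, against 118, 116 and 125 CPM with the non-targeting shRNA, groups that met at 125 CPM (log2 0.18 ± 0.052; edgeR adjusted p = 0.0296). Leaving out any of 4 of the 6 libraries, non-targeting replicate 1 or 2 or MDM2 shRNA replicate 1 or 3, took the adjusted p to between 0.105 and 0.139. With the PROTAC its change was 0.04 ± 0.052 (edgeR adjusted p = 0.705). RB1 had 119, 116 and 110 CPM with the PROTAC, against 94.8, 106 and 97.4 CPM with DMSO, groups that did not overlap. Its log2 change was 0.21 ± 0.060 (edgeR adjusted p = 0.0271), and the adjusted p lay between 0.0776 and 0.101 without DMSO replicate 1 or 3 or PROTAC replicate 1 or 2. With the MDM2 shRNA label RB1 changed by 0.16 ± 0.060, which missed (edgeR adjusted p = 0.0837). RB1 spans 295711 bases. Protein-coding genes over 200 kb had a median log2 change of -0.44 and -0.42 in this line, and of -0.05 and -0.16 in MDA-MB-436. Any link of span to the change of RB1 was not tested. E2F4 had 65.0, 63.5 and 48.9 CPM with the PROTAC, against 81.2, 65.5 and 82.8 CPM with DMSO, a log2 change of -0.37 ± 0.11 (edgeR adjusted p = 0.0377). That call was lost without DMSO replicate 1 or 3 or PROTAC replicate 3 (edgeR adjusted p = 0.112 to 0.126), and E2F4 has 1 pseudogene named after it.

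The remaining MDA-MB-231 values gave no call by edgeR, while DESeq2 called E2F3 higher and E2F5 lower with the PROTAC. E2F2 stood at 24.1, 25.3 and 22.1 CPM with the MDM2 shRNA label, just above the 21.0, 22 and 20.4 CPM of the non-targeting libraries, and its changes of 0.18 ± 0.069 and 0.09 ± 0.069 did not pass (edgeR adjusted p = 0.1 and 0.4). RBL1 had 69.0, 65.5 and 69.5 CPM, against 71.2, 74.6 and 69.1 CPM, and its changes were -0.08 ± 0.047 and 0.01 ± 0.047 (edgeR adjusted p = 0.299 and 0.875). The interval of the second, -0.09 to 0.12, bounds any RBL1 change with the PROTAC in this line to well under those in MDA-MB-436. E2F3 changed by 0.10 ± 0.20 and 0.51 ± 0.20, E2F5 by -0.07 ± 0.14 and -0.43 ± 0.15, and E2F6 by -0.04 ± 0.24 and -0.02 ± 0.23, with edgeR adjusted p from 0.0546 for E2F5 with the PROTAC to 0.968 for E2F6.

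The difference between the lines was tested in 1 model of all 24 libraries. For the MDM2 shRNA label, 6 of the 10 genes changed by more in MDA-MB-436 than in MDA-MB-231, where 9.94% of 24719 genes had a higher change, and for the PROTAC the same 6, against 11.8% of genes. None had a lower change by edgeR, at an adjusted or an unadjusted p under 0.05, against 9.77% and 10.5% of genes. The 6 were E2F1, E2F2, E2F7, E2F8, RB1 and RBL1. The difference for E2F2 was 2.29 ± 0.11 and 2.33 ± 0.11 on the log2 scale (edgeR adjusted p = 3.82e-11 and 2.46e-11). For RBL1 it was 1.44 ± 0.088 and 1.25 ± 0.088 (edgeR adjusted p = 8.64e-10 and 4.71e-09), and for RB1 1.31 ± 0.17 and 1.25 ± 0.17 (edgeR adjusted p = 9.09e-06 and 1.38e-05). E2F8, which rose in both lines, still rose by more in MDA-MB-436, by 1.14 ± 0.14 and 1.05 ± 0.14 (edgeR adjusted p = 6.12e-06 and 1.42e-05). No difference was called for E2F3, E2F4, E2F5 or E2F6. The nearest to a call was E2F4 with the PROTAC, at 0.47 ± 0.18 (edgeR adjusted p = 0.0676).

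Hairpin and PROTAC were also set against each other, as the difference of their changes, each from its own control. No difference was called for any of the 10 genes in either line, nor did any have an unadjusted p under 0.05. Over all genes edgeR called 1 in each line (0.00484% of the 20675 genes of MDA-MB-231 and 0.00441% of the 22663 of MDA-MB-436), with 977 and 1230 genes at an unadjusted p under 0.05. In MDA-MB-436 the PROTAC change of E2F2 minus that with the MDM2 shRNA label was -0.06 (95% interval -0.30 to 0.18), that of E2F1 0.10 (-0.19 to 0.39) and that of RB1 -0.02 (-0.53 to 0.49). The intervals were widest for E2F3, -0.32 (-1.72 to 1.08).

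Summed per kb, the 8 E2F genes together reached 283 ± 7.35 CPM per kb in MDA-MB-436 libraries labelled MDM2 shRNA, against 115 ± 4.76 with the non-targeting shRNA, and 278 ± 33.6 with the PROTAC, against 113 ± 2.33 with DMSO (SD, n = 3 each). The activators made up 73.5% ± 0.649 of that sum with the MDM2 shRNA label, against 61.2% ± 0.782, and 71.0% ± 4.24 with the PROTAC, against 57.0% ± 1.67. E2F7 and E2F8 together took 16.7% ± 0.667, against 12.8% ± 0.29, and 18.6% ± 3.32, against 15.2% ± 1.17. E2F4 and E2F5 together took 6.06% ± 0.22, against 15% ± 2.64, and 5.86% ± 0.50, against 14.7% ± 1.92. The activators and the atypical repressors were both at higher summed levels in treated libraries, while the summed level of E2F4 and E2F5 was 17.1 ± 0.26, against 17.3 ± 2.34 CPM per kb, and 16.2 ± 1.93, against 16.6 ± 2.4. In MDA-MB-231 the 8 genes summed to 145 ± 1.47, against 134 ± 2.75 CPM per kb, and to 146 ± 6.02, against 138 ± 2.01.

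**Figure D3:**
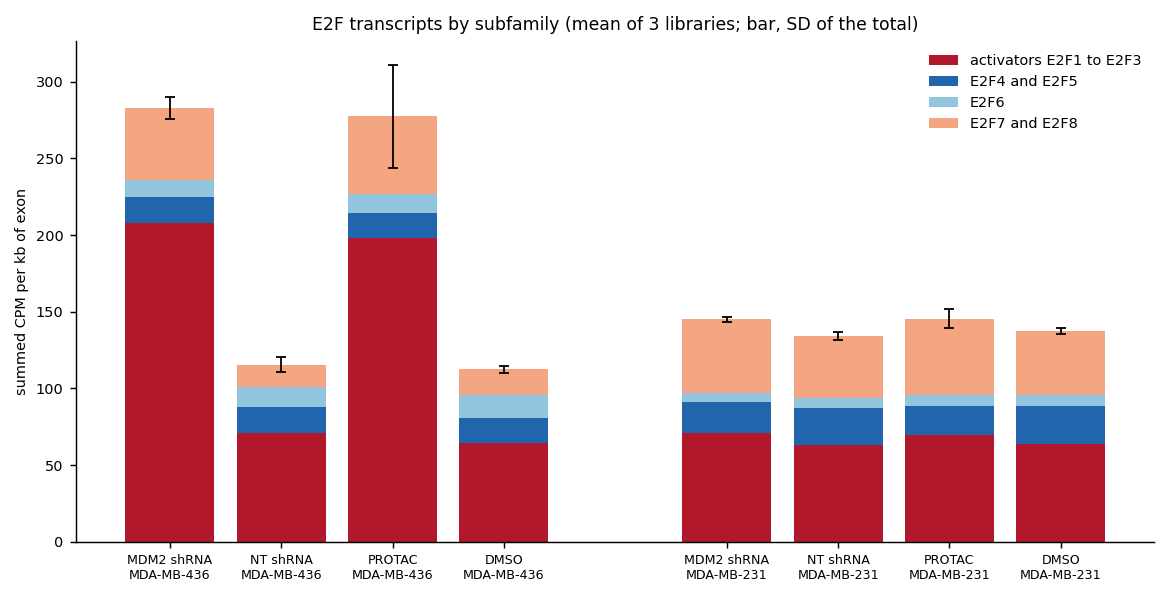
Summed level of the E2F genes in CPM per kb of exon, by subfamily and group; bars are means of 3 libraries from 0, and error bars the SD of the total. In MDA-MB-436 the total is 283 and 278 in treated libraries against 115 and 113 in controls, and the added height is in the activators and in E2F7 with E2F8.

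The order of the genes by level also differed between groups. E2F1 was the highest of the 10 per kb in all 8 groups, at 184 CPM per kb with the MDM2 shRNA label, against 63.8 with the non-targeting shRNA in MDA-MB-436, and at 54.3, against 47.9, in MDA-MB-231. With the MDM2 shRNA label in MDA-MB-436, E2F7 followed at 28.6, then E2F2 at 18.7 and E2F8 at 18.5, whose spreads overlap, and E2F4 at 15.3. E2F6 at 10.7 and RBL1 at 9.45 also overlap, E2F3 at 5.27 and RB1 at 3.39 came next, and E2F5 was last at 1.87 CPM per kb. E2F3 spread widely in that group (SD 3.82), so its place among E2F6, RBL1, RB1 and E2F5 is not settled. In the non-targeting libraries of that line E2F4 at 14.5 and E2F6 at 12.7 came after E2F1 and overlapped, E2F7 followed at 9.47 and E2F8 at 5.28, then RBL1 at 3.68, E2F3 at 3.50, E2F2 at 3.40 and E2F5 at 2.76, and RB1 was last at 1.22. The spread of E2F3 overlapped with those of RBL1, E2F2 and E2F5, and that of E2F2 with E2F5, while RBL1 and E2F2 were apart. E2F2 was thus 1.23 ± 0.0344 times the level of E2F4 with the MDM2 shRNA label, against 0.236 ± 0.0249 times with the non-targeting shRNA. E2F1 over RB1, in contrast, was 54.4 ± 5.11, against 53.0 ± 7.76, a ratio that moved by less than the spread of the libraries. With the PROTAC it was 57.8, 46.0 and 27.7, against 32.7, 44.2 and 35.5 with DMSO, and the groups overlapped. In MDA-MB-231 the same ratio was 3.21 ± 0.40, against 3.16 ± 0.193, with the MDM2 shRNA label. With the PROTAC there it was 2.71, 2.81 and 2.89, against 3.30, 2.93 and 3.29 with DMSO, lower in all 3 treated libraries.

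The partners and regulators of the family were read from 9 lists holding 102 genes. Their counts are to be read against the shares over all genes. In MDA-MB-436, 16.0% of all genes were called higher and 14.4% lower with the MDM2 shRNA label, and 17.3% and 15.1% with the PROTAC. In MDA-MB-231 these were 11.1% and 11.6%, and 11.1% and 11.5%, and the median log2 change of all genes lay between -0.01 and 0.04. Most of the S-phase genes that E2F activators are known to drive rose in MDA-MB-436: 27 of 31 G1/S targets rose and none fell by edgeR with the MDM2 shRNA label, and 26 rose and none fell with the PROTAC, with median log2 changes of 0.69 and 0.71. In MDA-MB-231, 14 rose and 5 fell with the MDM2 shRNA label, and 15 rose and 3 fell with the PROTAC (medians 0.16 and 0.22). Of these 31 genes, 21 had a higher change in MDA-MB-436 than in MDA-MB-231 by the test of the difference for the MDM2 shRNA label and 20 for the PROTAC, with 2 lower in each, where 9.94% and 11.8% of all genes were higher and 9.77% and 10.5% lower. CDC6, which loads the MCM helicase, rose to 243 ± 4.55 CPM with the MDM2 shRNA label, against 102 ± 6.27 CPM, in MDA-MB-436, and to 272 ± 8.53, against 173 ± 2.20, in MDA-MB-231. EZH2, the Polycomb methyltransferase, rose in MDA-MB-436 (303 ± 5.23, against 155 ± 6.92 CPM; edgeR adjusted p = 2.34e-07) and did not pass in MDA-MB-231 (144 ± 7.65, against 138 ± 9.03 CPM; edgeR adjusted p = 0.52), a difference of 0.91 ± 0.081 on the log2 scale (edgeR adjusted p = 1.06e-07). RRM2, a subunit of the enzyme that makes deoxynucleotides, differed in the opposite sense: it rose by 0.48 ± 0.055 in MDA-MB-436 and by 1.17 ± 0.038 in the other line, a difference of -0.71 ± 0.071 (edgeR adjusted p = 5.7e-07).

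Most of the mitotic genes, which the MuvB complexes switch on later in the cycle, fell in both lines. Of 20 G2/M targets, 14 fell and 1 rose with the MDM2 shRNA label and 16 fell and 1 rose with the PROTAC in MDA-MB-436 (medians -0.51 and -0.68), and 16 fell and 1 rose, and 13 fell and none rose by edgeR, in MDA-MB-231 (medians -0.49 and -0.38). Of all genes, 14.4% and 15.1% fell in MDA-MB-436 and 11.6% and 11.5% in MDA-MB-231. CCNB1, the mitotic cyclin, fell to 96.4 ± 1.15 CPM with the MDM2 shRNA label, against 287 ± 17.3 CPM, in MDA-MB-436, and to 167 ± 0.97, against 349 ± 10.3 CPM, in MDA-MB-231. KIF20A, a kinesin of cytokinesis, fell by 1.71 and 1.82 in MDA-MB-436 and by 1.18 and 0.97 in MDA-MB-231 on the log2 scale, and CDC20, which activates the anaphase-promoting complex, by 1.21 and 1.04, and by 1.22 and 1.23.

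**Figure D4:**
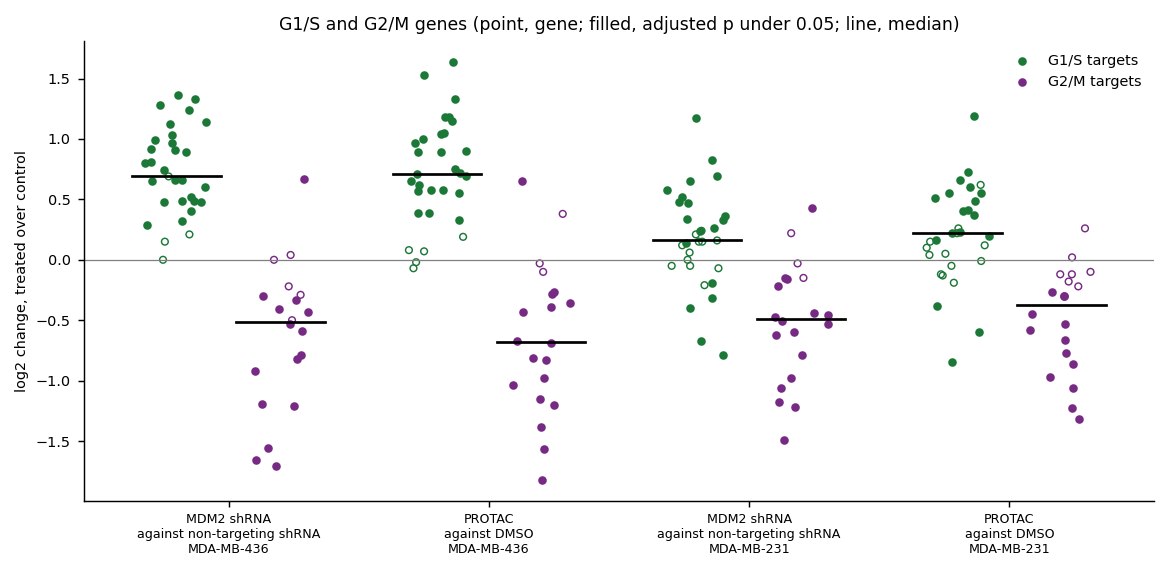
log2 change, treated over control, of the 31 G1/S and 20 G2/M genes in the 4 comparisons; each point is a gene, filled where the edgeR adjusted p is under 0.05, and the black line is the list's median. G1/S medians are 0.69 and 0.71 in MDA-MB-436 and 0.16 and 0.22 in MDA-MB-231, while G2/M medians are below 0 in all 4.

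Dimer partners and genes of the repressive DREAM complex moved in both directions. TFDP1, the main DP partner, fell in MDA-MB-436 to 340 ± 3.72 CPM with the MDM2 shRNA label, against 424 ± 21.1 CPM (log2 -0.30 ± 0.047; edgeR adjusted p = 0.000474), and rose slightly in MDA-MB-231 (0.15 ± 0.035; edgeR adjusted p = 0.00951). The difference was -0.47 ± 0.067 (edgeR adjusted p = 3.38e-05). Of the 2 DP genes tested of 3 listed, TFDP2 was the other, and it rose with the MDM2 shRNA label in both lines (0.38 ± 0.12 in MDA-MB-436 and 0.37 ± 0.064 in MDA-MB-231) and did not pass with the PROTAC. Of 9 DREAM and MuvB genes, 3 rose and 3 fell in each MDA-MB-436 comparison (medians -0.12 and -0.07), and 2 and 3 rose, with none called lower by edgeR, in MDA-MB-231 (medians 0.18 and 0.16). RBL2, the pocket protein p130, moved against RB1 and RBL1: it had 52.8, 54.8 and 53.2 CPM with the MDM2 shRNA label, against 91.8, 88.1 and 91.5 CPM with the non-targeting shRNA in MDA-MB-436. The log2 change of RBL2 was -0.74 ± 0.083, and -0.73 ± 0.083 with the PROTAC (edgeR adjusted p = 4.81e-05 and 4.85e-05), and in MDA-MB-231 it was -0.10 ± 0.082 and 0.01 ± 0.082 (edgeR adjusted p = 0.443 and 0.953). MYBL2, which joins MuvB for mitotic gene activation, rose in all 4 comparisons, by 0.92 and 0.93 in MDA-MB-436 and 0.60 and 0.58 in MDA-MB-231. LIN37, a MuvB subunit, rose by 1.65 ± 0.24 and 1.40 ± 0.24 in MDA-MB-436. In MDA-MB-231 it rose by 0.96 ± 0.27 with the PROTAC, and 0.33 ± 0.26 with the MDM2 shRNA label did not pass (edgeR adjusted p = 0.0232 and 0.444).

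Upstream of the pocket proteins, the RB kinase list of 10 genes holds CDK2, CDK4, CDK6, cyclins of the D, E and A types, and CDC25A. In MDA-MB-436 it had 4 genes higher and 2 lower with the MDM2 shRNA label and 3 higher and 2 lower with the PROTAC (medians 0.21 and 0.08). In MDA-MB-231 it had 4 higher and 3 lower, and 4 higher and 2 lower (medians 0.25 and 0.33). No change of CDK4 or CDK6 was called by edgeR in any of these comparisons. CDC25A, the phosphatase that activates CDK2 and an E2F target, rose in all 4 comparisons, to 174 ± 5.39 CPM with the MDM2 shRNA label, against 74.9 ± 3.56 CPM, in MDA-MB-436 and to 124 ± 3.91, against 79.9 ± 1.27 CPM, in MDA-MB-231. CCND1, cyclin D1, fell in all 4, by 0.87 and 0.95 in MDA-MB-436 and 0.80 and 0.86 in MDA-MB-231 on the log2 scale. The other D cyclins did not follow it throughout. With the MDM2 shRNA label CCND3 rose by 0.94 ± 0.22 in MDA-MB-436, and CCND2 changed by -0.58 ± 0.13 in MDA-MB-231 (edgeR adjusted p = 0.00694 and 0.00809). No other change of CCND2 or CCND3 was called by edgeR. CCNA2, cyclin A2, fell by 1.12 and 1.25 in MDA-MB-436 and by 0.16 in both MDA-MB-231 comparisons. Cyclin E went the other way from CCND1 and CCNA2: CCNE2 rose by 1.00 and 1.02 in MDA-MB-436 and by 1.45 and 1.25 in MDA-MB-231. CCNE1 rose by 1.29 and 1.21 in MDA-MB-231 and by 0.44 with the PROTAC in MDA-MB-436. CDK2 rose by 0.42 and 0.79 in MDA-MB-231 and by 0.66 with the MDM2 shRNA label in MDA-MB-436. In the remaining MDA-MB-436 comparison, CCNE1 (0.19) and CDK2 (-0.08) did not pass. Of 7 CDK inhibitors, 3 rose and none was called lower by edgeR in each MDA-MB-436 comparison (medians 0.22 and 0.24), and of the 5 tested in MDA-MB-231, 2 rose and 2 fell, and 1 rose and none was called lower (medians -0.09 and -0.09). CDKN1A, which encodes p21, had 35.9, 34.9 and 39.0 CPM with the MDM2 shRNA label, against 6.30, 6.56 and 6.54 CPM in MDA-MB-436, a rise of 5.73-fold (edgeR adjusted p = 8.67e-07). In MDA-MB-231 CDKN1A rose by 1.32 ± 0.36 and 1.35 ± 0.36 on the log2 scale (edgeR adjusted p = 0.0208 and 0.0185). With the MDM2 shRNA label its libraries there were uneven, at 83.1, 202 and 199 CPM, against 80.8, 32.3 and 80.1 CPM. The first of these treated libraries stood near the higher controls. PROTAC libraries had 214, 201 and 207 CPM, against 85.3, 76.2 and 81.2 CPM with DMSO. CDKN1B (p27) rose by 0.43 ± 0.064 and 0.24 ± 0.064 in MDA-MB-436, whereas in MDA-MB-231 it changed by -0.26 ± 0.078, a fall that passed with the MDM2 shRNA label, and by -0.17 ± 0.077 with the PROTAC (edgeR adjusted p = 0.0328 and 0.153). CDKN2B (p15) rose by 0.50 ± 0.11 and 0.49 ± 0.11 in MDA-MB-436.

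Corepressors and turnover genes were read in the same way. Of 8 pocket protein corepressors, 2 rose and 2 fell with the MDM2 shRNA label and 1 rose and 2 fell with the PROTAC in MDA-MB-436 (medians -0.03 and -0.21), and none rose by edgeR and 1 fell, and 1 rose and 1 fell, in MDA-MB-231 (medians -0.01 and 0.01). HDAC1, the histone deacetylase that pocket proteins recruit, fell to 209 ± 2.32 CPM with the MDM2 shRNA label, against 366 ± 11.6 CPM, in MDA-MB-436 (log2 -0.79 ± 0.051; edgeR adjusted p = 8.15e-07) and was 267 ± 8.88, against 264 ± 2.68 CPM, in MDA-MB-231, a difference of -0.83 ± 0.074 (edgeR adjusted p = 1.13e-07). ARID4A, which binds RB1, rose by 0.80 ± 0.20 and 1.04 ± 0.21 in MDA-MB-436, and SMARCA2, an ATPase of chromatin remodelling, rose by 0.59 ± 0.12 with the PROTAC in MDA-MB-231. Of 5 turnover genes, 3 and 2 fell in MDA-MB-436 (medians -0.67 and -0.50), with none called higher by edgeR, and 2 fell and none rose, and 2 fell and 1 rose, in MDA-MB-231 (medians -0.13 and -0.04). Cyclin F, encoded by CCNF, a ubiquitin ligase subunit that marks E2F proteins for degradation, fell to 58.4 ± 1.37 CPM with the MDM2 shRNA label, against 98.7 ± 3.36 CPM, in MDA-MB-436 and to 67.7 ± 0.882, against 91.9 ± 2.27 CPM, in MDA-MB-231. FZR1, an activator of the anaphase-promoting complex, changed by -0.20 ± 0.15 and -0.10 ± 0.15 in MDA-MB-436, which did not pass, and fell by 0.42 ± 0.053 and 0.44 ± 0.053 in MDA-MB-231. PSMD10, which binds RB1, fell by 0.67 ± 0.10 and 0.50 ± 0.10 in MDA-MB-436. The 9 partners of E2F6 had 3 genes higher and 2 lower, and 3 higher and 3 lower, in MDA-MB-436 (median -0.09 in both), and in MDA-MB-231 none higher by edgeR and 1 lower, and 1 higher and none lower by edgeR (medians 0.07 and 0.01). RING1, a Polycomb ubiquitin ligase, rose by 0.82 ± 0.13 and 1.00 ± 0.13 in MDA-MB-436, YAF2 rose by 0.77 ± 0.21 and 1.14 ± 0.21, and CBX3 fell by 0.52 ± 0.091 and 0.51 ± 0.091. In MDA-MB-231 CBX3 changed by -0.18 ± 0.057, which passed, and by -0.13 ± 0.057 with the PROTAC, which did not (edgeR adjusted p = 0.0377 and 0.146).

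The pattern over the 8 groups was compared with that of 13102 protein-coding genes, as the root-mean-square difference of centred log2(CPM + 0.5) means, which is a description of 8 means from 2 lines. E2F7 and RBL1 were each other's nearest gene, 0.102 apart. The median for E2F7 over all genes was 0.837, but a nearest gene lies below the median by choice. The nearest genes of the 10 members lay from 0.0564 (E2F4) to 0.156 (RB1) away. E2F1 lay nearest to CREB3L4 (0.0871) and POLR3C (0.118), and E2F2 nearest to the proto-oncogene MYB (0.148) and FBF1 (0.168). RB1, whose range of 3.80 on this scale was the widest of the 10, lay nearest to EDN1 (0.156) and TNFRSF11A (0.170). E2F8 lay nearest to ABCA5 (0.0965) and PSMC3IP (0.105), and the second nearest of E2F7 and RBL1 were RPS6KA5 (0.110) and ACTA2 (0.111). The nearest genes of E2F3 were CSNK1G3 and MAP3K1, of E2F4 C11orf68 and RPL13A, of E2F5 SHROOM2 and FKBP1A, and of E2F6 TAB3 and CCNJ, all within 0.127. Among the 10 genes themselves, the pairs next closest after E2F7 with RBL1 were E2F4 with E2F5 (0.281) and E2F1 with E2F2 (0.307).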

How the data were processed

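RNA-seq counts of the 24 libraries were used as deposited by the authors: whole-number counts per Ensembl gene, 60675 genes, not normalized. Per the labels' protocols, total RNA was isolated with TRIzol and libraries were made with a NEBNext Ultra II kit for an Illumina HiSeq. Whether poly(A) RNA was selected and whether counting used strand are not given in the sources used here. Per the submitters' processing notes, cutadapt 2.4, HISAT2, StringTie and edgeR were used with GRCh38; their order and settings are not stated. Deposited counts of 4 occurred 1.48 times as often as the mean of 3 and 5, so counts divided by 4 were an alternative. Names, exon lengths and spans came from GENCODE 29, which held 57055 of the identifiers and 99.93% of counts.

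Genes were kept by filterByExpr, scaled by TMM and tested with edgeR 4.0.16 (quasi-likelihood, R 4.3.3), with Benjamini-Hochberg adjustment over all genes tested and a threshold of 0.05. Each line was fitted with its 12 libraries (20675 and 22663 genes), and comparisons between lines with all 24 (24719 genes). All 10 genes passed the filter in both lines. SE belong to log2 changes, SD to levels. The fit was tested on simulated data. Alternatives were RLE factors, no scaling, 2 other filters, DESeq2 1.42.0, a replicate block, other sample sets and leaving out each library. Same-numbered libraries did not deviate together (correlations -0.081 to 0.075 over 12 pairs), so the replicate numbers were not taken as pairs.

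The members and gene lists were chosen with earlier results of these data known. Named beside the 10 genes are MDM2, from each list the up to 3 genes whose adjusted p was smallest in any treatment comparison, and the 2 genes nearest in pattern to each member among those with at least 1 CPM. Further genes of the RB kinase list and cell type markers are named as well. No p was adjusted over a list alone.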

Additional observations from a re-analysis of the deposited data

Results flagged for a closer look

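In 12 tests the change of an E2F or pocket gene differed between the lines, each by the test of the difference in edgeR's model of all 24 libraries (adjusted p from 2.46e-11 to 1.42e-05). For the MDM2 shRNA label the change in MDA-MB-436 minus that in MDA-MB-231 on the log2 scale was 1.35 for E2F1, 2.29 for E2F2, 1.51 for E2F7, 1.14 for E2F8, 1.31 for RB1 and 1.44 for RBL1. For the PROTAC it was 1.61 for E2F1, 2.33 for E2F2, 1.37 for E2F7, 1.05 for E2F8, 1.25 for RB1 and 1.25 for RBL1. In the control libraries 5 of these 6 transcripts, all but E2F1, were lower in MDA-MB-436 than in MDA-MB-231, where 30.9% of 24719 genes were. The same control libraries enter the changes and this comparison, so these values are not independent. With 1 line on each side, the line and anything that differs with it cannot be told apart.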

How the results depend on the processing

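The 6 rises in MDA-MB-436 and the rise of E2F8 in MDA-MB-231 kept their direction and call under every alternative run for them and every left-out library. The 6 differences between lines for each treatment did so with RLE factors, no scaling, the 1 CPM filter, the replicate block and left-out libraries, the alternatives run for them. In MDA-MB-231 with the MDM2 shRNA label, the count of genes called higher, 2, became 5 with no scaling, and 1 with no filter, with the 6 libraries alone or in the fit of 24. The count lower, 0, became 1 with the 6 libraries. With the PROTAC there, the count higher, 2, became 1 with no filter or in the fit of 24, and 3 with DESeq2 (E2F3). The count lower, 1, became 0 with no scaling, with no filter or in the fit of 24, and 2 with the 1 CPM filter, with counts divided by 4 or with DESeq2. In MDA-MB-436 the count lower with the MDM2 shRNA label, 0, became 1 (E2F5) with the 1 CPM filter, counts divided by 4, the 6 libraries, the fit of 24, DESeq2 and the replicate block. The block lost no call and changed 2 other counts, those with a larger PROTAC change in MDA-MB-436 (6 to 7, adding E2F4) and lower in its controls (7 to 8, adding E2F5).

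Leaving out single libraries gave 1 to 2 called higher in each MDA-MB-231 comparison, 0 to 1 lower with the PROTAC there, 0 to 1 lower in MDA-MB-436 with the MDM2 shRNA label, 6 to 7 with a larger PROTAC change in MDA-MB-436, and 7 to 8 lower in its controls. Signs turned only for changes that were not called: with no scaling, E2F5 (0.04), E2F6 (0.06) and RBL1 (0.02) with the MDM2 shRNA label and E2F6 (0.06) with the PROTAC in MDA-MB-231. For PROTAC minus hairpin, they turned for E2F7 in MDA-MB-231 (0.00066, RLE) and E2F4 in MDA-MB-436 (-0.01 with RLE, no scaling or the block). With left-out libraries the ranges that crossed 0 were, in MDA-MB-231, -0.08 to 0.23 (E2F3), -0.25 to 0.02 (E2F5) and -0.20 to 0.09 (E2F6) with the MDM2 shRNA label and -0.27 to 0.16 (E2F6) and -0.01 to 0.04 (RBL1) with the PROTAC. In MDA-MB-436 they were -0.19 to 0.90 and -0.02 to 0.54 (E2F3) and -0.02 to 0.17 (E2F4, PROTAC). Between lines they were -0.29 to 0.78 and -0.54 to 0.02 (E2F3) and -0.42 to 0.01 (E2F6). For PROTAC minus hairpin they were -0.20 to 0.02 (E2F4), -0.21 to 0.22 (E2F6) and -0.06 to 0.03 (E2F7) in MDA-MB-231, and -0.62 to 0.47 (E2F3), -0.11 to 0.08 (E2F4), -0.17 to 0.17 (E2F6), -0.11 to 0.07 (E2F8) and -0.20 to 0.11 (RB1) in MDA-MB-436. The cause was not tested.

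Of all called genes, 48.8% and 49.1% were higher in MDA-MB-231 and 52.5% and 53.4% in MDA-MB-436, against 68% and 65.6%, and 72.8% and 70.9%, with no scaling, which shifted the median of all genes by 0.10, 0.08, 0.18 and 0.17.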
